A study of Schizosaccharomyces pombe with 8 samples.

Results

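Regions of the fission yeast genome that carried more trimethylated lysine 4 of histone H3 (H3K4Me3) in nitrogen-rich medium (+N) than after nitrogen starvation (-N) were collected from ChIP-on-chip profiles, in which immunoprecipitated DNA and its input are hybridized to one microarray. The members were chosen by the H3K4Me3 values themselves. Each array's log2 of ChIP over input was set to a median of 0, and running means of 5 neighbouring probes (windows) were taken. A window was chosen where this value was higher in +N than in -N by at least 0.6 in replicate 1 and again in replicate 2. Of 37227 windows, 846 met the rule (2.27%), and merging overlapping windows gave 329 regions, 148 on chromosome I, 108 on II and 73 on III. Since the H3K4Me3 difference chose the regions, it is described here and not tested. The H3 arrays took no part in the choice.

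All cells were diploids of strain PN2159 carrying pat1-114, a temperature-sensitive allele of the kinase that holds back meiosis, and all were shifted to 34 °C to start it. The +N cells had been kept with nitrogen and, per the study's methods, arrested with the mating pheromone M-factor, and they were sampled 30 min after the shift. The -N cells had been starved of nitrogen and then, per the methods, re-fed, and they were sampled after 2 h, at the same stage, the start of premeiotic S phase. Nitrogen, pheromone and time after the shift therefore cannot be told apart. The 4 groups (H3K4Me3 +N, H3K4Me3 -N, H3 +N and H3 -N) had 2 arrays each. Replicate 1 of all groups lay on one slide and replicate 2 on the other, so each difference between +N and -N was taken within a slide. The study's supplement speaks of biological replicates, and the labels do not say how the cultures were kept apart. The supplement also calls the differences between +N and -N minimal for both H3 and H3K4Me3. It puts them in the range seen between biological replicates and proposes that they lay within experimental noise.

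The slides were of unequal quality for H3K4Me3. In the ChIP channel 44.6% of nuclear probes were well above background in +N and 56.8% in -N on slide 1, against 90.2% in +N and 95.1% in -N on slide 2. At the regions' top windows, those with the greatest smaller-of-2 difference, a median of 15 of the 20 H3K4Me3 ChIP measurements were well above background, the same as over all windows. All 20 were in 34 regions (10.3%, against 6.32% of all windows), and fewer than 10 were in 38 (11.6%, against 11.2%).

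In fission yeast, as in other eukaryotes, H3K4Me3 is laid down by the Set1 complex on nucleosomes just downstream of the start of transcription, so that active genes carry a peak at the 5′ end and a low level over the body. The promoter itself is depleted of nucleosomes and appears as a trough of H3. The ratio to H3 matters because a rise of H3K4Me3 can come with more nucleosomes or with more of the mark per nucleosome.

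Genes were named on chromosomes II and III and on chromosome I up to position 3750000, where the probe coordinates, whose build is not given in the sources used here, matched assembly ASM294v3 with no shift. This part held 278 of the 329 regions. The 250 bases before the annotated start of 5 genes in leading regions are printed here from RefSeq assembly ASM294v3, 5′ to 3′ on the strand of the gene, because the gain at these loci covered or flanked the promoter. The genes are an aromatic aminotransferase gene in the leading region, the oxoprolinase genes that diverge from each other in the next, an amino-acid permease gene and the manganese superoxide dismutase gene. Capitals mark matches on either strand to GATAAG (the GATA motif), TGACGT (the ATF/CREB motif), TATAAA (the TATA box) and TTCTTTGTT (the Ste11 box).
SPBC1773.13 (chrII:310187-310436, plus strand): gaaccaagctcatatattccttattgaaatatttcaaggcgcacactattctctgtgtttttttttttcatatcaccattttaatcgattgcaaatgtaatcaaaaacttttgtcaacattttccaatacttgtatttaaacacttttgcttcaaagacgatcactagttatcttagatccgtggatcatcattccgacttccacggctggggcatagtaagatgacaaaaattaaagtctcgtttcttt
SPAC11D3.14C (chrI:135148-135397, minus strand): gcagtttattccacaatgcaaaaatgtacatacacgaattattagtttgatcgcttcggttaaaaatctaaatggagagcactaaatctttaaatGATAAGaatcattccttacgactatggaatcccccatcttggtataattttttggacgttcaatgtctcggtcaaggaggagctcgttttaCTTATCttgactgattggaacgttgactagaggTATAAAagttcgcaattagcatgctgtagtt
SPAC11D3.15 (chrI:135995-136244, plus strand): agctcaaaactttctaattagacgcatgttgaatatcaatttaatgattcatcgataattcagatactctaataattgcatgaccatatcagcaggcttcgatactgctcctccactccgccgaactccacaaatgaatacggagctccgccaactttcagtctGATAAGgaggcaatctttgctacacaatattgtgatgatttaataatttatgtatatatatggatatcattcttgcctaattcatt
meu22 (chrII:3242736-3242985, minus strand): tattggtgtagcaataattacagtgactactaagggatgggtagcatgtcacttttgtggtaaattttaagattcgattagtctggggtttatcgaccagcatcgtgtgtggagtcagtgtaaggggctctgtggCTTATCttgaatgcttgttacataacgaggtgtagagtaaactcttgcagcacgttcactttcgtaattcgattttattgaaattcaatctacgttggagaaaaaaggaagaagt
sod2 (chrI:3185082-3185331, plus strand): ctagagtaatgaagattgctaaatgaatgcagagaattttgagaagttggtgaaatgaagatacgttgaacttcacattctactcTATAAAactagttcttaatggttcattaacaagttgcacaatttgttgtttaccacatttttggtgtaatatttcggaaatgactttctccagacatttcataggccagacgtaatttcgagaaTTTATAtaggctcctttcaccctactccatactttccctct

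GATAAG is the element of GATA zinc-finger factors such as Gaf1 and Fep1, TGACGT that of Atf1-Pcr1, and TTCTTTGTT that of Ste11, the master regulator of sexual development. The upstream 250 bases of SPAC11D3.14C held 2 GATA motifs and a TATA box, and those of SPAC11D3.15 and of meu22 held 1 GATA motif each. The meu22 motif lies in a stretch shared with the divergent gene mcs6. No capitals occur before SPBC1773.13, which says only that these letters are not in this window. Over the 294 protein-coding genes whose 5′ end lay in a region, GATAAG occurred before 35 (11.9%), against 10.2% of all 5112 protein-coding genes. TGACGT occurred before 7.14% of the genes in regions and 5.52% of all genes, TTCTTTGTT before 2.04% and 1.62%, and TATAAA before 38.4% and 44.4%. The motifs were thus about as frequent before the genes in regions as before all genes, and a match is no evidence of binding.

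The size of the gain was modest at most regions and large at a few. At the top windows the difference between +N and -N had a median of 0.81 in replicate 1 (range 0.60 to 1.87) and 0.83 in replicate 2 (0.60 to 2.00), against 0.00 and 0.03 over all windows. The 3 windows just inside the threshold had a smaller difference of 0.6004, 0.6005 and 0.6007, and the 3 just outside had 0.5993, 0.5996 and 0.5999, so that no gap in the values separates members from other windows. The mirror rule, lower in +N by at least 0.6 in both replicates, took 780 windows in 350 regions, nearly as many. A difference of at least 1 in both replicates was reached by 31 regions. The regions had a median length of 1653 bp (828 to 6990 bp) and held a median of 2 member windows (1 to 13). Both +N arrays lay above both -N arrays in 291 regions (88.4%), against 16.3% of all windows, which follows largely from the rule.

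**Figure D1:**
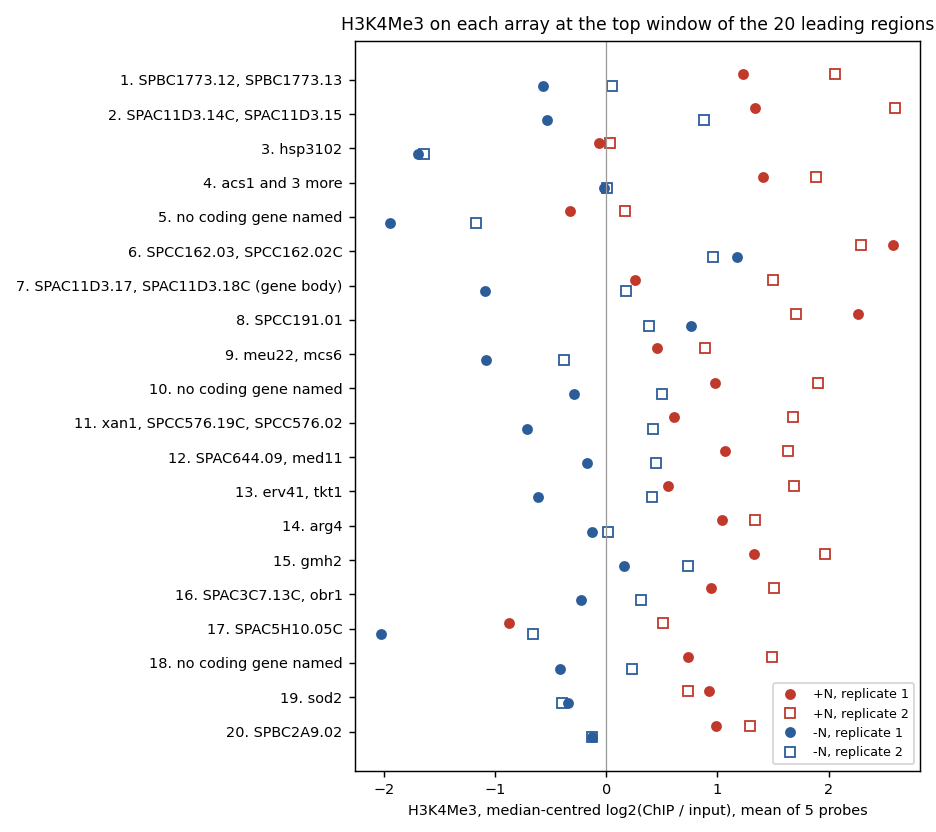
H3K4Me3 (log2 of ChIP over input, median-centred, mean of 5 probes) on each of the 4 arrays at the top window of the 20 leading regions, ordered by the smaller of the 2 replicate differences, with +N in red above -N in blue and replicates as filled circles (1) and open squares (2). Within each replicate the +N value lies to the right of the -N value, as the rule requires, while at SPAC5H10.05C replicate 2 of -N (-0.66) is higher than replicate 1 of +N (-0.87).

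The 20 regions with the largest smaller difference had a smaller difference of 1.12 to 1.79. In the first of them, at 307852 to 311191 on chromosome II, the top window, which lay over the body of SPBC1773.12, a predicted transcription factor, and reached the start of SPBC1773.13, an aromatic aminotransferase downstream of it, had an H3K4Me3 value of 1.23 and 2.05 in +N, against -0.57 and 0.05 in -N (replicates 1 and 2). It gained 1.79 and 2.00, and the conditions did not overlap. The H3 value there differed by -0.26 and -0.01. The smaller H3K4Me3 difference in this region depended on the window size, with 2.92 for windows of 3 probes and 1.14 for windows of 7. At 134096 to 136783 on chromosome I, the promoter between the oxoprolinase genes SPAC11D3.14C and SPAC11D3.15, whose enzymes open the ring of 5-oxoproline to give glutamate, stood at 1.34 and 2.59 in +N, against -0.53 and 0.88 in -N. Its H3 was higher in +N by 0.26 and 0.15. The arrays of both conditions differed more between slides at this locus than at the first, but +N was far above -N on each slide.

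The third region, at 146954 to 151484 on chromosome I, spanned 11 windows over dgc1, a D-glutamate cyclase, and the start of hsp3102, a glyoxylase III. Its top window, upstream of hsp3102, had -0.07 and 0.04 in +N, against -1.69 and -1.64 in -N. Here the mark came up only to the array median, and 10 of the 20 ChIP measurements were well above background. H3 differed by -0.55 and 0.39, in opposite directions on the 2 slides. The fourth, at 1711068 to 1713760 on chromosome III, held the start of acs1, which makes acetyl-CoA from acetate, with SPCC191.03C, SPCC191.04C and the nucleoside deoxyribosyltransferase gene SPCC191.05C. H3K4Me3 was 1.41 and 1.89 in +N, against -0.02 and 0.01 in -N. The fifth, at 5434612 to 5438774 on chromosome I, and the eighteenth, at 5481547 to 5483343, lie outside the annotated part and are given no gene.

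The 6th, 8th, 9th and 11th regions held gene starts. The divergent dehydrogenase genes SPCC162.03 and SPCC162.02C had 2.58 and 2.29 in +N, against 1.17 and 0.96 in -N, the highest starting level among the 20 regions, with all 20 ChIP measurements well above background. The promoter shared by meu22, an amino-acid permease, and mcs6, the kinase that activates Cdc2, had 0.46 and 0.89 in +N, against -1.08 and -0.38 in -N. Around xan1, which oxidizes xanthine, and SPCC576.02, of the hydantoin racemase family, it was 0.61 and 1.68 in +N, against -0.72 and 0.42 in -N. SPCC191.01, of unknown function, had 2.27 and 1.71 in +N, against 0.77 and 0.39 in -N, and it was 1 of the 5 regions with the lowest H3 difference (-0.45 and -0.31). The starting levels of these regions differed widely.

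From the 12th to the 20th region the smaller difference was 1.12 to 1.18. Those not yet described lay at SPAC644.09 with med11, a Mediator subunit, erv41 with tkt1, the transketolase of the pentose phosphate pathway, SPAC3C7.13C, a glucose-6-phosphate dehydrogenase, with obr1, a quinone reductase, gmh2, a galactosyltransferase, SPAC5H10.05C with the body of adh4, an alcohol dehydrogenase, sod2, and SPBC2A9.02, of the epimerase and dehydratase family. At sod2 the values were 0.92 and 0.73 in +N, against -0.34 and -0.40 in -N. In several leading regions the gain did not lie over the 5′ ends they held. The top window of the arg4 region was centred 916 bp inside the gene, which encodes the carbamoyl-phosphate synthase of arginine synthesis, with 1.04 and 1.34 in +N, against -0.13 and 0.02 in -N, while over the 5′ end of arg4, from 250 bp before to 750 bp after it, H3K4Me3 was 1.84 and 2.19 in +N, against 2.15 and 2.04 in -N. Over the same stretch of sod2 it was 2.99 and 3.55 in +N, against 3.22 and 3.31 in -N. For SPBC1773.13 it was 1.03 and 1.60 in +N, against 1.43 and 1.26 in -N, and for acs1 2.85 and 2.80 in +N, against 2.50 and 2.75 in -N. None of these 4 gained by 0.6 in either replicate at its own 5′ end. The 7th region lay over the bodies of SPAC11D3.17 and SPAC11D3.18C, and the 10th, at 213538 to 215819 on chromosome I, over noncoding RNA genes alone.

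The starting level was low to intermediate. At the top windows the mean of the 2 arrays had a median of 0.91 in +N and of -0.01 in -N, against 0.37 in +N and 0.37 in -N over all windows. On the single arrays the medians were 0.77 and 1.14 in +N, against -0.21 and 0.21 in -N. In -N, 167 regions lay below 0, 87 between 0 and 1, 63 between 1 and 2 and 12 at 2 or more. In +N, 68 lay below 0, 107 between 0 and 1, 96 between 1 and 2 and 58 at 2 or more. Only 3.65% of the regions thus started at 2 or more, against 7.46% of all windows. A level above the array median on both +N arrays and below it on both -N arrays was seen in 34 regions (10.3%), against 0.825% of all windows. Both contrasts with all windows draw on arrays that the rule used, and the second follows largely from the rule.

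**Figure D2:**
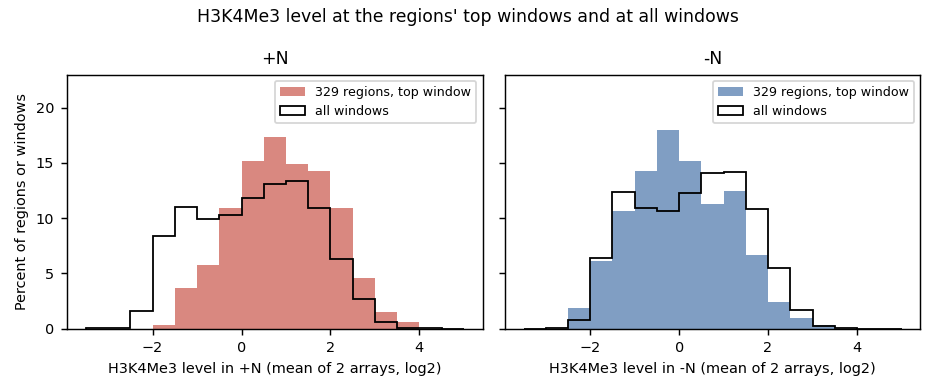
Distribution of the H3K4Me3 level (mean of 2 arrays, log2) at the top windows of the 329 regions (filled) and at all 37227 windows (line), in +N on the left and in -N on the right, as percent of regions or windows. The regions centre on 0.91 in +N and on -0.01 in -N, and all windows on 0.37 in both.

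The gain, which the rule bounds from below, is given by starting level as a description. Regions below 0 in -N gained a median of 0.83 and 0.86, those from 0 to 1 gained 0.86 and 0.87, and those of 1 or more gained 0.74 and 0.79. The share of windows that met the rule was 3.1% among all windows below 0 in -N, 2.43% from 0 to 1 and 1.1% at 1 or more. Because the -N arrays enter both the level and the difference, error in -N alone lowers the level and raises the gain together, and this relation is given as a description. Regions with a high level more often held a gene start: a coding 5′ end lay in 92.1% of those at 1 or more, 84.7% of those from 0 to 1 and 67.1% of those below 0. Over all coding genes the -N level was also highest at the start. It averaged 2.11 and 2.48 in the first 250 bp, against -0.19 and -0.21 from 1000 to 1250 bp. The share over all windows by level was not computed, so the trend is not shown to be particular to the regions.

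H3 itself, measured on other arrays, differed little. The H3 level at the top windows had a median of -0.48 in +N and -0.50 in -N, against -0.08 in +N and -0.05 in -N over all windows, so the regions sat in H3-poor chromatin in both conditions. The H3 difference between +N and -N had a median of -0.04 in replicate 1 and 0.08 in replicate 2, against -0.05 and 0.00 over all windows. At the top windows of the losing regions it was -0.02 and -0.12, so in replicate 2 H3 moved slightly with the mark. The mean of both replicates had a median of 0.02 at the gaining regions (range -0.61 to 0.74), against -0.02 over all windows. H3 was higher in +N in both replicates in 99 regions (30.1%, against 21.3% of all windows), lower in both in 64 (19.5%, against 26.8%) and of opposite sign in 166. A shift of at least 0.3 in both replicates was seen upwards in 5 regions (1.52%, against 0.355% of all windows) and downwards in 2 (0.608%, against 1.4%). H3K4Me3 less H3 differed by at least 0.6 in both replicates in 207 regions (62.9%, against 3.26% of all windows), a gap that follows largely from the rule.

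By limma no H3 window was called at an adjusted p under 0.05, in the regions or over all windows (0 of 37227, 0.0%). At an unadjusted p under 0.05 there were 6 of 329 top windows (1.82%) and 2.24% of all windows. With the replicate number as a block, 52 of all windows were called (0.14%), 2 higher and 50 lower in +N, and none at a top window of a region, with 13 (3.95%) of the top windows and 4.64% of all windows at an unadjusted p under 0.05. Without H3 +N replicate 2, H3 was called at 503 of all windows and at 2 top windows, over fra1 (0.78) and near SPCC757.13 and aah1 (-0.91). Without H3 -N replicate 1 it was called at 6 of all windows and at 1 top window, at SPCC1235.17 and ght6 (1.69), and without H3 -N replicate 2 at 20 of all windows and at no top window. A lone array is then assumed to vary as much as the other condition.

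**Figure D3:**
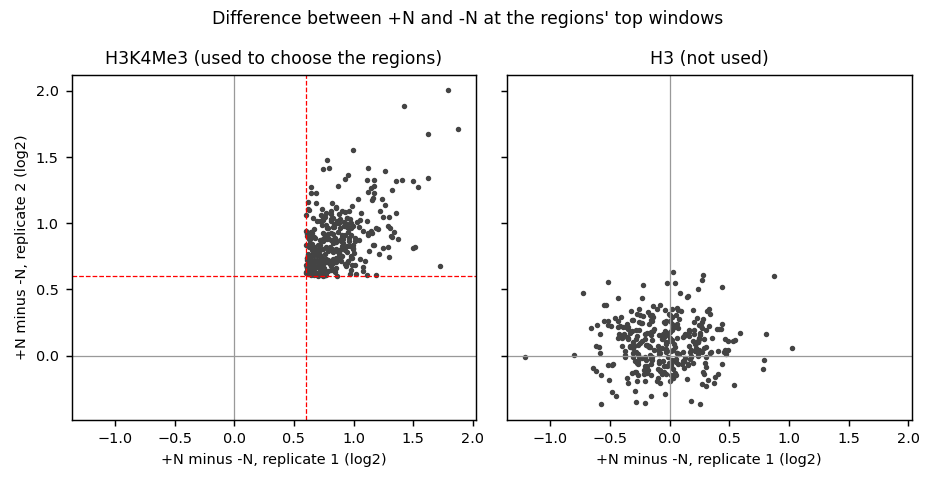
Difference between +N and -N at the top window of each of the 329 regions, replicate 1 on the x axis and replicate 2 on the y axis (log2), for H3K4Me3 on the left, with the threshold of 0.6 as dashed lines, and for H3 on the right on the same axes. The H3K4Me3 points lie above 0.6 on both axes by choice, and the H3 points scatter around 0 in both replicates with medians of -0.04 and 0.08.

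The highest mean H3 difference was found at SPCC1235.17 and ght6, a hexose transporter gene, at 205553 to 210392 on chromosome III. H3 was 0.41 and -1.76 in +N, against -0.47 and -2.37 in -N, and H3K4Me3 was 1.25 and -0.37 in +N, against -0.11 and -1.45 in -N. The values of both antibodies differed by over 1 between the slides in each condition, and 6 of 20 H3K4Me3 ChIP measurements were well above background. After it came puf5, an RNA-binding protein (H3 difference 1.02 and 0.06), SPCC417.09C, a transcription factor (0.80 and 0.16), SPCC965.13, a membrane transporter (0.44 and 0.52), and SPAC17A2.10C (0.28 and 0.61). The lowest were a region without a named gene at 5149500 to 5151977 on chromosome I (-1.21 and -0.01), the body of SPBC3E7.07C (-0.58 and -0.36), SPCC757.13, a dipeptide transporter (-0.81 and 0.01), and the body of SPAC1F8.08 (-0.48 and -0.28), followed by SPCC191.01. At puf5, SPCC417.09C, SPCC757.13 and the unnamed region, replicate 1 made up most or all of the difference. The extremes depended on the processing: the mean H3 difference at SPCC1235.17 and ght6 was 0.74, but 0.079 with normexp and 0.013 without dim probes. At SPCC965.13 it was 0.48, but 0.048 with windows of 3 probes, and at SPCC191.01 it was -0.38, but -0.10 with normexp.

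The gain lay mainly in the ChIP channel, whose values on the H3K4Me3 arrays belong to the contrast that chose the regions and are given as a description. With each channel centred on its own median, the ChIP signal on the H3K4Me3 arrays was higher in +N by a median of 0.84 and 0.70, and it was higher in both replicates in 325 of 329 regions (98.8%, against 35.5% of all windows). The input on the same arrays is the other part of that contrast, so a lower input in +N is partly selected for. This input differed by -0.12 and -0.13, against -0.01 and -0.03 over all windows, and was lower in both replicates in 56.2% of the regions (29.7% of all windows). The ChIP signal alone passed 0.6 in both replicates in 183 regions (55.6%, against 3.08%). The input hybridized on the H3 arrays, which the rule did not use, differed by -0.06 and -0.11 and was lower in both replicates in 46.8% of the regions and 34.9% of all windows. Whether it was the same input DNA is not given in the labels. Limma called no window in it (0.0%), with 5 of the top windows (1.52%) and 0.524% of all windows at an unadjusted p under 0.05. With the replicate block it also called none (0.0%), with 16 of the top windows (4.86%) and 1.93% of all windows at an unadjusted p under 0.05. The gain thus came with a slightly lower input at many regions, which on the H3K4Me3 arrays follows partly from the rule. The part of the input in the gain was not tested.

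Most regions in the annotated part covered a gene start. A coding 5′ end was found in 215 of the 278 regions in the annotated part (77.3%). This share depended on the processing, and with quantile normalization, which gives the arrays of an antibody the same spread, it was 61.3%. Without it the standard deviation of H3K4Me3 over all windows was 1.18 and 1.47 in +N, against 1.18 and 1.29 in -N. The part of this spread in the placement of the regions was not tested. It ran from 57.3% with windows of 3 probes to 89.4% with windows of 7, but a longer window also has more room to cover a 5′ end. No share for other stretches of the same length as the regions was computed. The top window by itself covered one in 66.9%, against 48.7% of all windows and 13.2% of the windows that led regions losing H3K4Me3 by the mirror rule. More than 1 coding 5′ end was covered by 71 regions, of which 57 held a divergent pair. A further 44 regions overlapped only the body or 3′ end of a coding gene and 19 overlapped none. The centre of the top window had a median position of -108.5 bp from the nearest coding 5′ end (negative upstream), against 378 bp for all windows and 1248 bp for the losing regions. It was 0 to 500 bp upstream in 32% of regions (16.5% of all windows) and over 1000 bp downstream in 8.63% (26.9%). The top windows were thus centred further upstream than windows in general, and the losing ones further downstream.

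The profile over the 294 genes with a 5′ end in a region describes the levels around the start. These genes were chosen because a region covered their 5′ end. An offset near the start that fades with distance therefore follows largely from that choice. From 0 to 250 bp downstream of the 5′ end, H3K4Me3 averaged 1.92 and 2.46 in +N, against 1.15 and 1.60 in -N. From 500 to 250 bp upstream it averaged 0.62 and 1.00 in +N, against -0.13 and 0.23 in -N. The offset was about the same on both sides of the start, whereas from 1000 to 1250 bp downstream the values were -0.30 and -0.57 in +N, against -0.44 and -0.43 in -N. Over all 4276 coding genes with probes there, the first 250 bp averaged 2.37 and 2.96 in +N, against 2.11 and 2.48 in -N. The genes in regions thus averaged lower than all genes in both conditions, and the lower -N values are those that the rule chose. Gene starts in general were also higher in +N on this scale: from 250 bp before to 750 bp after the 5′ end the median coding gene differed by 0.12 and 0.37. H3 in the 250 bp upstream of the genes in regions was -1.20 and -0.95 in +N, against -1.01 and -1.05 in -N, lower in +N on slide 1 and higher on slide 2. For all genes it was -1.17 and -0.82 in +N, against -0.89 and -0.87 in -N.

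**Figure D4:**
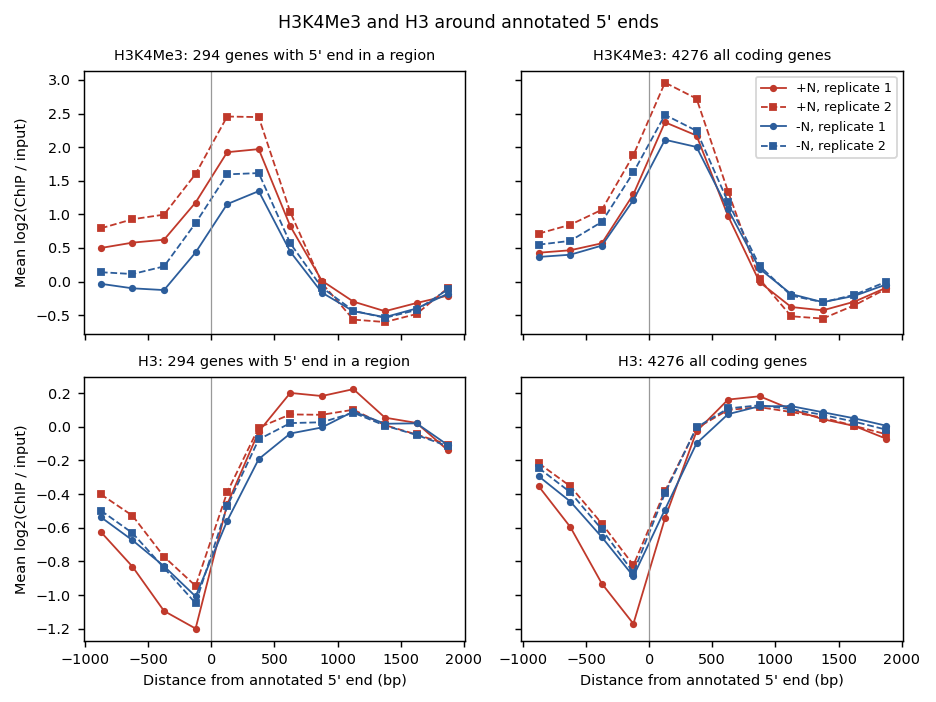
Mean log2 of ChIP over input in bins of 250 bp around annotated 5′ ends for H3K4Me3 (top) and H3 (bottom), over the 294 coding genes with a 5′ end in a region (left) and all 4276 coding genes (right), with +N in red, -N in blue, and replicates as solid (1) and dashed (2) lines. In the first 250 bp of the genes in regions the +N lines stand at 1.92 and 2.46 and the -N lines at 1.15 and 1.60, and the H3 trough lies just upstream of the start on all 4 arrays.

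Genes of 7 functional lists, and of classes taken from the annotation, were then looked up. All lists were drawn up with earlier results of these data known. Of all 4276 coding genes, 6.88% had a 5′ end in a region, and from 250 bp before to 750 bp after the 5′ end, usually 2 to 4 probes, 2284 had a higher H3K4Me3 value in +N in both replicates and 481 a lower one. Of the 29 genes measured for amino acid biosynthesis, 6 lay in a region (20.7%). These were leu1 (3-isopropylmalate dehydrogenase), arg3, arg11 and arg4 of arginine synthesis, met6 (homoserine acetyltransferase) and his5. At the start of leu1, H3K4Me3 was 2.69 and 3.33 in +N, against 1.74 and 2.16 in -N. At arg3, whose region also holds the start of arg11, it was 1.54 and 1.73 in +N, against 0.95 and 0.91 in -N. His5, like arg4, differed little over its own 5′ end (0.26 and -0.16). The list had a median difference of 0.30, with 15 genes higher in +N in both replicates and 2 lower, against a median of 0.25 for all coding genes.

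Iron uptake had 2 of 9 genes in a region (22.2%) and a median difference of 0.64, with 6 genes higher in both replicates and 1 lower. Frp1, the ferric reductase, had 0.84 and 1.33 in +N, against -0.03 and 0.13 in -N, and sib2, of siderophore synthesis, had -0.96 and -0.63 in +N, against -1.77 and -1.68 in -N. The H3 difference was -0.72 and -0.05 at frp1 and 0.37 and 0.22 at sib2. Of 153 genes annotated as a transporter or permease, 26 were in a region (17.0%, median difference 0.37, 99 higher in both replicates and 18 lower). Among those of the 26 with the largest differences were aat1, an amino acid permease (0.06 and -0.10 in +N, -1.20 and -1.20 in -N), ymc1 (0.50 and 0.09 in +N, -0.88 and -0.82 in -N), pet802, a carrier of S-adenosylmethionine (1.59 and 1.80 in +N, 0.48 and 0.68 in -N), and meu22. Not all of the 26 gained over their own 5′ end. The cysteine transporter gene SPCPB1C11.03 was lower in +N there in both replicates (-0.33 and -0.63). The shares of these groups stand above that of all coding genes, but the groups are small, the lists were not blind to the data and no test of the shares was made. Some of the genes, such as frp1, lay in runs of regions near chromosome ends, described below. The part of position in the shares was not tested.

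Of 21 pheromone-response genes measured, 2 lay in a region (9.52%), and the list had a median difference of 0.39, with 15 genes higher in +N in both replicates and 2 lower. Mam3, an adhesin of conjugation, had 1.32 and 1.67 in +N, against 0.26 and 1.09 in -N, and sxa2, a serine carboxypeptidase of the pathway, 0.38 and 1.59 in +N, against -0.24 and 1.07 in -N. Of the nitrogen starvation response genes, 1 of 14 was in a region (7.14%, 6 higher in both replicates and 1 lower). It was gaf1, which encodes a GATA factor of nutrient sensing, with 2.80 and 3.77 in +N, against 2.03 and 1.95 in -N. Of the core environmental stress genes, 1 of 13 was (7.69%, 8 higher and 3 lower), gst2, a glutathione S-transferase, with 2.97 and 3.25 in +N, against 1.86 and 2.06 in -N. No gene of meiotic recombination (0 of 14, 6 higher and 3 lower) or of hexose transport and glucose repression (0 of 12, 7 higher and 4 lower) had its 5′ end in a region, although a region overlapped the body of the hexose transporter gene ght6. Of the noncoding classes, 8 of 121 tRNA genes (6.61%), 3 of 57 snoRNA genes (5.26%) and 316 of 5845 lncRNA genes (5.41%) had their 5′ end in a region, shares near or below that of coding genes. Most regions (260 of 278) overlapped at least 1 noncoding gene of this dense annotation.

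A few further regions were chosen after their values were seen. Urh1, a uridine ribohydrolase divergent from the maltase gene mal1, had 0.86 and 1.72 in +N, against -0.25 and 0.39 in -N. Aru1, the arginase, with the transporter gene SPAC3H1.06C, had 0.58 and 0.07 in +N, against -0.72 and -0.89 in -N. The region over the permease gene SPAC11D3.08C and the agmatinase gene SPAC11D3.09 had 0.16 and 1.22 in +N, against -0.89 and 0.24 in -N, and that over the body of amt3, an ammonium transporter, had -0.67 and 0.45 in +N, against -1.66 and -0.68 in -N. At urh1 and aru1 both +N arrays lay above both -N arrays. At SPAC11D3.08C replicate 2 of -N (0.24) lay above replicate 1 of +N (0.16), and at amt3 these arrays were nearly equal (-0.68 and -0.67). The start of rep2, which encodes an activator subunit of the cell cycle factor MBF, stood at 2.19 and 2.47 in +N, against 0.96 and 1.38 in -N.

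The regions were unevenly spread along the chromosomes. Windows 100 to 150 kb from the outermost probe of a chromosome met the rule in 13.5% of cases (126 of 930), against 2.39% and 2.23% in the 50-kb bins nearer the end and 3.09% from 150 to 200 kb. Between 100 and 200 kb lay 39 regions (11.9%) with 18.2% of the member windows, a part of the genome that holds 4.93% of all windows and 3.33% of the losing ones. The longest run was on the left end of chromosome I, where 14 regions lay between 89001 and 171744 with no gap over 15 kb. They included the leading regions of the oxoprolinase genes, SPAC11D3.17, hsp3102, SPAC5H10.05C and gmh2. Of the 259 windows there, 25.5% met the rule. Runs of 9 regions each lay at 145825 to 198527 on chromosome II, with thi7, urh1, frp1 and the adenine deaminase gene dea2, and at 5429083 to 5483343 on chromosome I, outside the annotated part. On the right arm of chromosome II, the stretch 100 to 200 kb from the outermost probe had 2 member windows among 297 (0.673%).

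**Figure D5:**
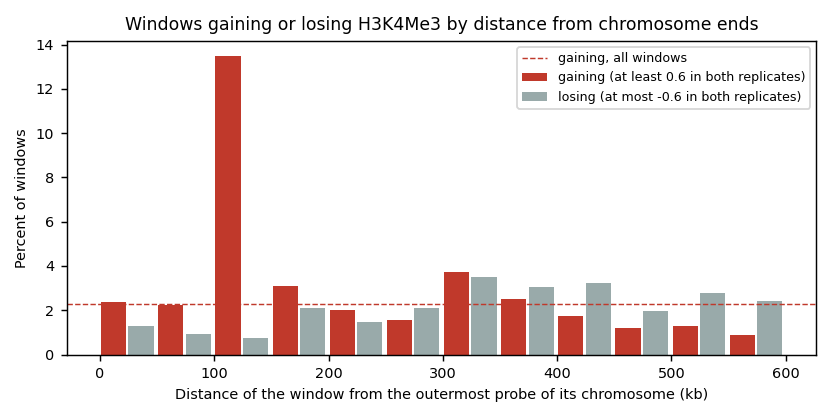
Percent of windows that gained H3K4Me3 in +N by the rule (red) and that lost it by the mirror rule (grey), by distance of the window from the outermost probe of its chromosome in bins of 50 kb, with the genome-wide share of gaining windows (2.27%) as a dashed line. Gaining windows make up 13.5% of the bin from 100 to 150 kb.

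The input moved in the same stretch, on slide 2 alone. Over all windows 100 to 200 kb from an end, the input of the H3K4Me3 arrays was higher in +N by 0.32 in replicate 2 and differed by -0.02 in replicate 1, and on the H3 arrays the difference was 0.32 in replicate 2 and -0.03 in replicate 1. The H3K4Me3 ratio there was higher in +N by a median of 0.13 and 0.18, against 0.00 and 0.02 over the other windows, and for the member windows, chosen for it, it was higher by 0.89 and 0.91, with a ChIP signal higher by 0.95 and 1.25. H3 at these member windows differed by -0.04 and 0.11. The part of the input in the clustering was not tested. With these stretches left out, 692 windows in 290 regions remained, of which 76.9% in the annotated part covered a gene 5′ end, with a median H3 difference of 0.02.

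The membership of a region depends on the processing, and that of the leading ones much less. Background correction by normexp in place of the processed signals gave 334 regions, but they overlapped only 162 of the 329 (49.2%). Quantile normalization gave 311 and overlapped 235 (71.4%). Of the 20 leading regions, normexp kept 18, losing sod2 and SPBC2A9.02, and quantile normalization kept all. With replicate 2 alone 1108 regions met the threshold, and with replicate 1 alone 817.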

How the data were processed

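Arrays were Agilent 2-colour designs with input DNA in green and ChIP DNA, amplified with T7 RNA polymerase, in red. The intensity values deposited by the authors were processed signals of Agilent Feature Extraction 10.7.3.1, background-subtracted, detrended and dye-normalized linearly within each array. The authors also deposited log2 values, which on all 8 arrays matched the ratio of red to green computed here (r = 1.0), not centred. They served as a check.

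Of 42641 nuclear probes, those with an outlier flag on any array were left out, and 37227 windows of 5 probes remained. Saturated spots were kept. The members and gene lists were chosen with earlier results of these data known. H3 and input windows were tested with limma 3.58.1 under R 4.3.3, two-sided and without a replicate block, and p-values were adjusted by Benjamini-Hochberg over all windows. With 2 arrays against 2, an exact permutation test of a single value cannot go below 0.333. The fit and the rule were tested on simulated data. Python 3.11.15 with pandas 2.3.3 and matplotlib 3.10.9 did the rest.

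The text names the 20 regions with the largest smaller difference, the 5 with the highest and the 5 with the lowest mean H3 difference, those with an H3 call, the windows next to the threshold, and up to 10 genes of a list with a 5′ end in a region. Outside these rules it names some genes in the longest runs of regions, a transporter gene that was lower in +N, and a few further regions chosen after their values were seen. The ribosomal protein class is not reported here. Alternatives changed the centring, normalization, outlier flags, window, background correction (normexp on median signals, offset 50, since mean signals were not used here), dim or multi-copy probes, threshold, region value, block and arrays. A table of promoter sequences was not used here, so promoters are the 250 bases before RefSeq gene starts, in place of the 300 planned. The correspondence of probe coordinates with ASM294v3 was checked by correlating probe length with GC content in 51 segments, of which 43 matched unshifted and 8, at the far end of chromosome I, matched best at a shift of 6140 to 6150 bp. No coordinates were converted.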

Additional observations from a re-analysis of the deposited data

How the results depend on the processing

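The values in this paragraph describe other choices of processing. Thresholds of 0.5, 0.8 and 1 gave 1471, 269 and 76 windows in 538, 126 and 31 regions. Windows of 3 probes gave 1429 windows in 736 regions, a median H3K4Me3 level of 1.24 in +N, and 57.3% of regions at a gene 5′ end, and windows of 7 probes gave 559, 168 and 89.4%. Centring each array on its 10th percentile gave 2578 windows in 848 regions, a median H3 difference of 0.19, and median levels of 3.08 in +N and 2.15 in -N. Quantile normalization gave levels of 0.072 in +N and -0.78 in -N, a 5′ share of 61.3% and 4 H3 calls. The 5′ share was 83.5% with normexp and 82.8% without dim probes. With 1 replicate in place of both, the counts were 2806 to 3620 windows and 817 to 1108 regions, the median levels 0.54 to 1.71 in +N and -0.41 to 0.90 in -N, and the 5′ share 70.3% to 87.1%. The causes of these shifts were not tested. With 1 array left out, H3 calls numbered 0 to 503 over all windows and 0 to 2 at the top windows. The replicate block gave 52 H3 calls over all windows and 0 at the top windows, and with it, an alternative chosen after seeing the data, no input window was called (0). Same-numbered arrays of +N and -N, which shared a slide, deviated together from their groups, with a correlation over windows of 0.21 for H3 and 0.65 for H3K4Me3, but with 2 numbers the labels give no further pairing.

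Regions gaining in +N overlapped 51.4% of the 329 with windows of 7 probes, 86.6% without dim probes and 93.0% with outlier-flagged probes kept. The smaller difference at sod2 was 0.47 with normexp and 0.49 without dim probes, and at SPBC2A9.02 it was 0.55 with normexp. Leaving out the stretches 100 to 200 kb from the ends, also chosen after seeing the data, kept 290 of the 329 regions and 14 of the 20 leading ones. Outlier tests need groups of 4 arrays, so none was run. Multi-copy probes could be found only in the annotated part. The dim H3K4Me3 ChIP signal of slide 1 and the 2 arrays per group limit what can be told of single regions.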
